A study of Mus musculus with 12 samples.

Results

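The complement genes measured here were C1qa, C1qb, C4b, C3, C3ar1, Cfb, Cfp, Cfi and C6, which make up 9 of the 770 genes of a NanoString mouse immune panel. They were taken by symbol, as a named set of components, 1 receptor and regulators. The rule itself uses no measured value, but the set was chosen with earlier results of these data known. RNA came from T cells and macrophages purified from cell suspensions of lung tumours. All mice carried the KrasTrp53 genetically engineered model on a mixed strain background, including the controls, and the labels give no allele, Cre driver, age, dose or treatment time. Treatment was with vehicle, with JQ1, which inhibits bromodomain proteins, or with ricolinostat, which inhibits histone deacetylases. This gives 6 groups, vehicle T cells, JQ1 T cells, ricolinostat T cells, vehicle macrophages, JQ1 macrophages and ricolinostat macrophages, of 2 libraries each. Whether the 2 libraries of each group came from separate animals is not stated in the labels, so p-values measure only how far these libraries differ, which may be technical. The comparisons ask how the complement genes differ between the purified fractions and what each drug does to them.

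Complement is a protein cascade of innate immunity that tags surfaces for uptake, releases peptides that recruit and activate leukocytes, and can assemble a pore in a target membrane. The classical route starts when C1q binds antibody or other ligands and leads to cleavage of C4, while the alternative route amplifies cleavage of C3 through factor B and is stabilised by properdin. Both routes meet at C3, whose fragment C3a signals through the receptor encoded by C3ar1, and factor I, encoded by Cfi, cuts C3b and C4b into inactive forms. Most circulating complement is made in the liver, whereas C1q and properdin are made largely by myeloid cells.

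Values are the authors' normalised signals on a linear scale, and a signal of 20 or less was taken as background. Each gene has its own probe, so signals were compared between libraries and not between genes. Counts above background were estimated at 1455052 to 2082153 in T cell and at 773550 to 1542097 in macrophage libraries, so that a signal of 20 rests on few counts. The labelled T cell fraction held macrophage RNA. The 12 measured macrophage markers of a list of 14 exceeded 20 in every library. Their summed signal was 812871 to 1374277 in T cell and 1124464 to 1291222 in macrophage libraries. Lyz2 and Chil3 made up most of these sums, at 639920 and 643822 in vehicle T cell replicate 1, so the sums say little of the other markers. The sum of 10 T cell markers was 4126 and 4154 in vehicle T cells, while under ricolinostat it stood at 2637 and 3300. Both JQ1 T cell libraries were at 165, with Cd3e, Cd3g, Cd247, Cd5, Cd6 and Thy1 at background, and the macrophage libraries were at 108 to 568. The JQ1 libraries labelled T cells therefore lacked most of their defining transcripts, and "T cell fraction" below means the labelled fraction. Both ricolinostat replicate 2 libraries stood apart. Across genes their Spearman correlation was 0.928 with each other and 0.778 to 0.861 with the other 10 libraries, which correlated among themselves at 0.883 to 0.985. In bulk RNA, fewer cells of a type and less RNA per cell cannot be told apart.

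Promoter sequences of 3 members are shown as a description, and no test used them. C1qb belongs to the closest pair in the set, C3ar1 is the member that JQ1 lowered in the T cell fraction, and C3 is the hub of the cascade. The RefSeq promoter table, on build GRCm38.p6, held 5 of the 9 members, C1qb, C3ar1, C6, C3 and Cfp. Each window runs 5′ to 3′ on the gene's strand from 250 bases before the annotated start to 50 bases after it. These windows were searched on both strands for 6 motifs, and matches are in capitals. The motif letters were TATAAA for the TATA box, CCAAT for the box of that name, TTNNGCAA for C/EBP and GAGGAAGT for PU.1, and the interferon response element and the NF-kB site were searched too. The C1qb window, chr4:136886151-136886450 on the minus strand, held no match.
C1qb: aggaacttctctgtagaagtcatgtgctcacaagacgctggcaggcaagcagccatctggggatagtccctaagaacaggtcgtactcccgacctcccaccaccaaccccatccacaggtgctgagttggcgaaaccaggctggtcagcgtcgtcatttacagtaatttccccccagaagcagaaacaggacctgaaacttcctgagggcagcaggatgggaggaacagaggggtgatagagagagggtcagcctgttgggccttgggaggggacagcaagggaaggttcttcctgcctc
The C3ar1 window, chr6:122856108-122856407 on the minus strand, held TATAAA at position -235 from the start.
C3ar1: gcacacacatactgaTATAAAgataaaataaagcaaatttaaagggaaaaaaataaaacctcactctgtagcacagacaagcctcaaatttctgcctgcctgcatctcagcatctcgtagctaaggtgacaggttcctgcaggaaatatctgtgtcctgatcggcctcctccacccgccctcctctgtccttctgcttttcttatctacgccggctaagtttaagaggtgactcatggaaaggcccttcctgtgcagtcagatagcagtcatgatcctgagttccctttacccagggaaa
The C3 window, chr17:57228087-57228386 on the minus strand, held TATAAA at position 15 past the start and the C/EBP motif, on the opposite strand, at position -45.
C3: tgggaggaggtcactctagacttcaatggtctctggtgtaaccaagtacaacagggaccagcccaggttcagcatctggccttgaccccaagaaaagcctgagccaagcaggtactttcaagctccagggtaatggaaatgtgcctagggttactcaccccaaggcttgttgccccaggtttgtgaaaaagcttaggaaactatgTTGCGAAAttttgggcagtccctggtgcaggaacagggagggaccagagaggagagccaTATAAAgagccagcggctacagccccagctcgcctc
No match was found in the C6 or Cfp windows. Of the 32851 promoters in the table, 13.6% held TATAAA, 10.8% the C/EBP motif, 37.4% CCAAT, 3.44% the interferon response element, 3.2% the PU.1 motif and 0.155% the NF-kB motif. A match is a description of the letters and not a site of binding. In the same annotation C1qa and C1qb are separated by 1 protein-coding gene, C1qc, and C4b and Cfb by 5, Cyp21a1, Stk19, Dxo, Skiv2l and Nelfe.

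C1qa and C1qb encode chains A and B of C1q, the recognition molecule of the classical route. C1qa read 3109 and 3996 in vehicle T cells, 3318 and 1603 in JQ1 T cells and 2824 and 6271 in ricolinostat T cells. In the macrophage fraction the signals were 385 and 874 with vehicle, 159 and 114 with JQ1 and 539 and 675 with ricolinostat. Every T cell library lay above every macrophage library, and the JQ1 macrophages lay below the other macrophage groups without overlap. C1qb read 4097 and 5238 in vehicle T cells, 4204 and 1965 in JQ1 T cells and 3839.6 and 6296 in ricolinostat T cells. The macrophage libraries read 492 and 1311 with vehicle, 263 and 219.9 with JQ1 and 739.6 and 601 with ricolinostat. The order of the groups was that of C1qa, except that the vehicle macrophage mean of C1qb lay above the ricolinostat one, and these 2 groups overlapped for both genes.

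C4b encodes the C4 protein, which is cleaved to form part of the classical pathway's C3 convertase. Its mouse copy C4a is nearly identical, and the sources used here do not say whether the probe separates them. C4b read 2398 and 1168 in vehicle T cells, 312 and 1811 in JQ1 T cells and 2865 and 8066 in ricolinostat T cells. Macrophages read 3246 and 4119 with vehicle, 326 and 2327 with JQ1 and 3671 and 15474 with ricolinostat. Replicates of C4b thus differed more than those of the other members under JQ1, by 5.78-fold in T cells and 7.11-fold in macrophages on the signal + 1 scale. Of 659 genes, 11 and 10 respectively, C4b included, had replicates at least as far apart in those groups. The second library was the higher one in both fractions, and so it was for C3 (1.69-fold and 1.51-fold) and Cfb (2.31-fold and 2.07-fold).

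C3 is the component on which all routes converge. C3 read 3375 and 4814 in vehicle T cells, 2439 and 4131 in JQ1 T cells and 3774 and 15982 in ricolinostat T cells. Macrophage signals were 2727 and 4627 with vehicle, 3602 and 5439 with JQ1 and 4542 and 28487 with ricolinostat. All 6 groups overlapped with their neighbours in the order of means, and the 2 values far above the rest were the ricolinostat replicate 2 libraries.

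C3ar1 encodes the receptor for C3a, a G-protein-coupled receptor of myeloid cells. C3ar1 read 3295 and 3081 in vehicle T cells, 1154 and 581 in JQ1 T cells and 1529 and 19727 in ricolinostat T cells. In the macrophage fraction the signals were 828 and 1125 with vehicle, 193 and 196 with JQ1 and 638 and 6726 with ricolinostat. The JQ1 macrophage libraries were the lowest of all 12, and the JQ1 T cell libraries lay below both vehicle T cell libraries. Ricolinostat replicate 2 exceeded replicate 1 by 12.9-fold in T cells and 10.5-fold in macrophages.

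**Figure D1:**
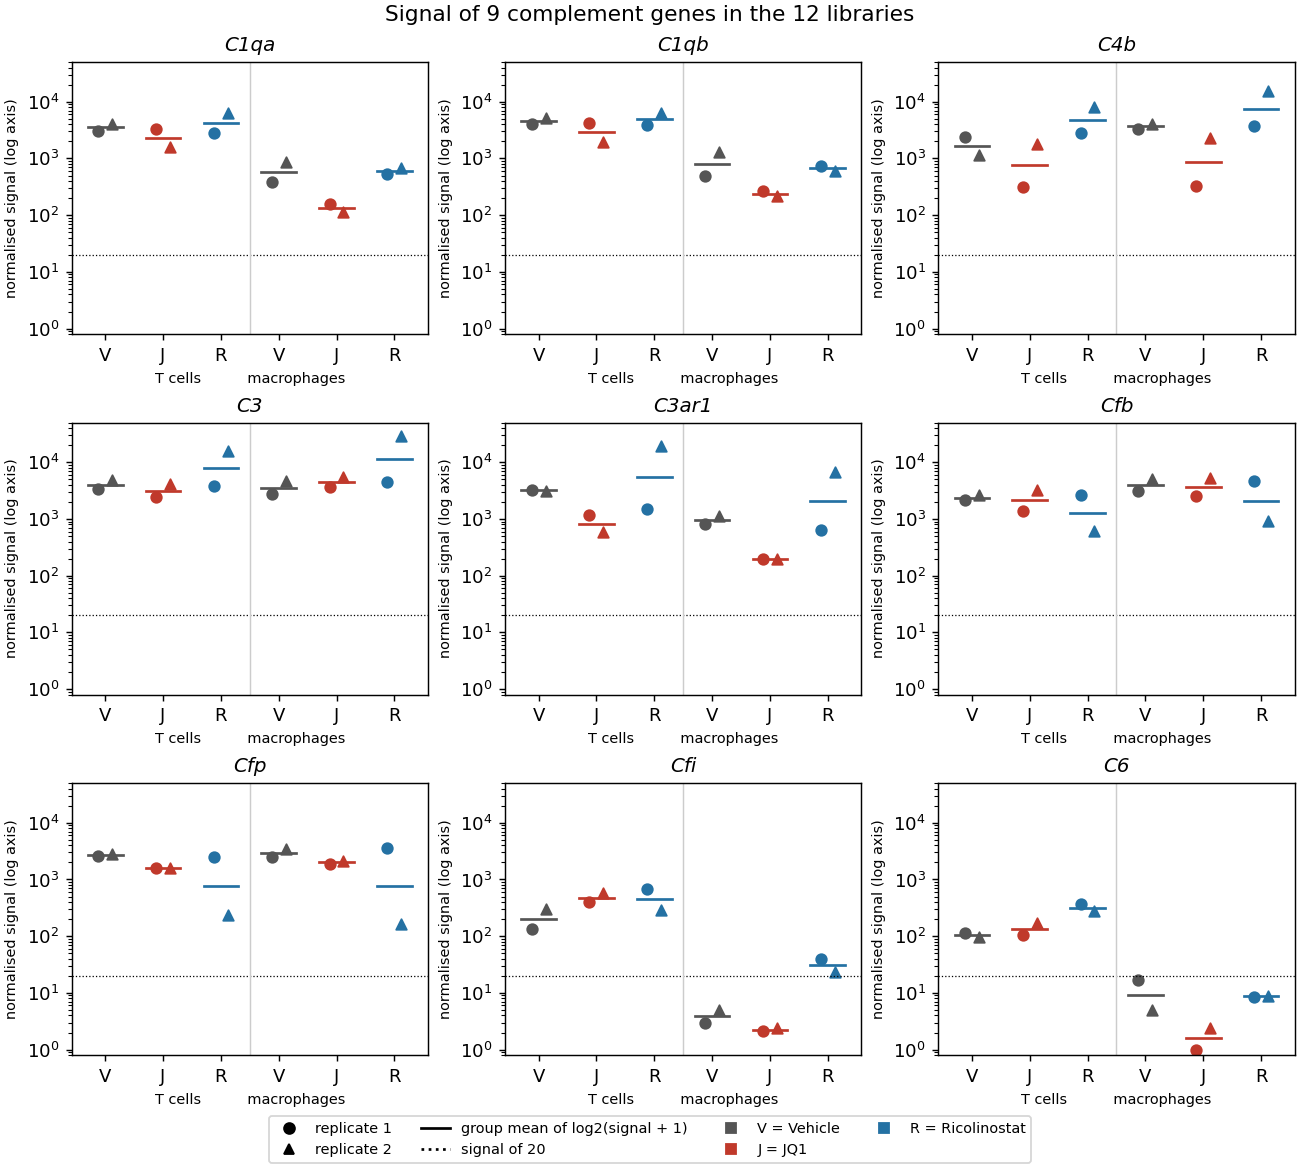
Normalised signal (log axis) of the 9 complement genes in each library, by fraction and treatment, with replicate 1 as circles, replicate 2 as triangles, the mean of log2(signal + 1) as a bar and a signal of 20 as a dotted line. C1qa, C1qb, C6 and Cfi lay higher in every T cell library than in every macrophage library, C3ar1 was lowest in JQ1 macrophages, and ricolinostat replicates were far apart for C3, C3ar1, Cfb and Cfp.

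Cfb encodes factor B, the serine protease of the alternative C3 convertase. Cfb read 2148 and 2626 in vehicle T cells, 1409 and 3258 in JQ1 T cells and 2593 and 619 in ricolinostat T cells. The macrophage libraries read 3124 and 4974 with vehicle, 2531 and 5244 with JQ1 and 4585 and 927 with ricolinostat. Groups next to each other in the order of means overlapped throughout.

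Cfp encodes properdin, which stabilises that convertase. Cfp read 2584 and 2847 in vehicle T cells, 1590.1 and 1623 in JQ1 T cells and 2484 and 233 in ricolinostat T cells. Macrophages read 2449 and 3489.99 with vehicle, 1871 and 2158 with JQ1 and 3643 and 164 with ricolinostat. In both fractions the JQ1 libraries lay below the vehicle ones without overlap, and the replicates of JQ1 T cells differed by only 1.02-fold. For Cfp and Cfb the ricolinostat replicate 2 libraries were the lowest of all 12, the opposite side from C3 and C3ar1.

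Cfi encodes factor I, the protease that inactivates C3b and C4b. Cfi read 134 and 299 in vehicle T cells, 397 and 570.0 in JQ1 T cells and 689 and 291 in ricolinostat T cells. In macrophages it was at background under vehicle, at 2.9 and 5.03, and under JQ1, at 2.12 and 2.41, and it read 40.2 and 23.6 under ricolinostat. Only the ricolinostat macrophage libraries, close to the background limit, exceeded 20 in that fraction.

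C6 encodes a component of the membrane attack complex, the terminal pore. C6 read 115 and 95.6 in vehicle T cells, 106 and 169 in JQ1 T cells and 368 and 273 in ricolinostat T cells. In macrophages every library was at background, from 1 under JQ1 to 16.6 under vehicle. Both ricolinostat T cell libraries lay above all others.

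Under vehicle, the C1q chains, the C3a receptor, factor I and C6 were lower in the macrophage than in the T cell fraction, while C3, C4b, factor B and properdin did not pass the test. The limma test on log2(signal + 1), adjusted over the 640 genes tested in the 8 vehicle and JQ1 libraries, called 5 of 9 members lower and none higher. Of all genes tested 24.1% were called, 18.1% lower and 5.94% higher. C6 and Cfi entered the test through the T cell libraries alone and so had to differ, which leaves 3 of the other 7. The median log2 difference of all 9 members, with C6 and Cfi as fitted or at their bounds, was -1.72 against -0.06 over all genes. As C6 and Cfi had to differ, this median does not describe the other 7, which are given singly below.

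C1qa was 6.07-fold lower in vehicle macrophages (log2 difference -2.60 ± 0.52 SE, limma adjusted p = 0.0204, n = 2 and 2). C1qb was 5.76-fold lower (-2.53 ± 0.57, limma adjusted p = 0.0287). C3ar1 was 3.30-fold lower (-1.72 ± 0.35, limma adjusted p = 0.0206). For each of the 3, both macrophage libraries lay below both T cell libraries. Cfi was at least 9.59-fold lower (limma adjusted p = 0.00109) and C6 at least 5.04-fold lower (limma adjusted p = 0.0128), the bound being a signal of 20 in the macrophages. C3 (-0.18, adjusted p = 0.777), C4b (1.13, 0.542), Cfb (0.73, 0.386) and Cfp (0.11, 0.736) did not pass, although both macrophage libraries lay above both T cell libraries for C4b (2.18-fold) and Cfb (1.66-fold). With libraries paired across fractions by the last numbers of their titles, Cfb passed as higher in macrophages (limma adjusted p = 0.0484). The labels do not say that these are pairs.

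The calls of C1qa, C1qb, C3ar1 and C6 under vehicle depended on single libraries. Cfi passed in all 17 alternatives, which is no sign of stability for a gene that entered the test through the T cell libraries alone. Without vehicle T cell replicate 1 the limma adjusted p was 0.0955 for C1qa, 0.118 for C1qb, 0.119 for C3ar1 and 0.0861 for C6. Without vehicle T cell replicate 2 it was 0.138, 0.172, 0.118 and 0.0846 in the same order. Without vehicle macrophage replicate 1 it was 0.0774 for C1qa, 0.0899 for C1qb and 0.0945 for C3ar1, and without either JQ1 macrophage library it was 0.051 for C1qb. The sizes kept their sign, from -3.19 to -2.01 for C1qa, -3.23 to -1.82 for C1qb and -1.94 to -1.32 for C3ar1 over the 17 alternatives. C3ar1 was not called when the ricolinostat libraries shared the estimate of spread (adjusted p = 0.699), and C6 was not called after quantile normalization (0.111).

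Under JQ1 the same 5 members were lower in macrophages and none was higher, again with 24.1% of genes called, 14.8% lower and 9.22% higher. C1qa was 17.0-fold lower (log2 difference -4.09, limma adjusted p = 0.00545), C1qb 11.9-fold (-3.57, 0.0116) and C3ar1 4.19-fold (-2.07, 0.0137). Cfi was at least 22.7-fold lower (limma adjusted p = 0.000453) and C6 at least 6.42-fold lower (0.00262). The median of the members was -2.07 against 0.15 over all genes. It includes C6 and Cfi and so does not describe the other members alone. C1qa passed in all 17 alternatives. C6 and Cfi did too, but they again entered the test through the T cell libraries alone, so this is no sign of stability. C1qb missed without JQ1 T cell replicate 1 (limma adjusted p = 0.0541) or JQ1 macrophage replicate 2 (0.0537), and C3ar1 without JQ1 macrophage replicate 1 (0.0667) or 2 (0.0572) and with the ricolinostat libraries in the fit (0.639). C3 (0.48), C4b (0.21), Cfb (0.77, adjusted p = 0.342) and Cfp (0.32, adjusted p = 0.307) were not called. Cfb passed with paired libraries (0.0419) and Cfp after centring each library on its median (0.64, 0.0273).

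Under ricolinostat, with all 12 libraries in the fit, 4 of 9 members were lower in macrophages and none higher, where 5.77% of 659 genes were called, 5.61% lower and 0.152% higher. C1qa was 6.96-fold lower (limma adjusted p = 0.0389), C1qb 7.36-fold (0.0346) and Cfi 14.1-fold (0.0101), and C6 was at least 15.1-fold lower (0.00302). Without both ricolinostat replicate 2 libraries C6 and Cfi passed (limma adjusted p = 0.0175 each), and C1qa (-2.39, 0.109) and C1qb (-2.38, 0.13) did not, with 10% of 649 genes called, 8.94% lower and 1.08% higher. C1qa passed in 7 of 21 alternatives (limma adjusted p from 0.0175 to 0.172), C1qb in 11 (0.0225 to 0.14), Cfi in 20 (0.00529 to 0.0536) and C6 in all 21 (0.000523 to 0.0375), having entered the test through the T cell libraries alone. Leaving out any 1 library ended the C1qa call, and Cfi missed without ricolinostat T cell replicate 1 (0.0536). C1qb missed without either vehicle T cell library (0.0679 and 0.0681), either JQ1 macrophage library (0.0654 and 0.0655), or ricolinostat replicate 1 or 2 of T cells (0.0716 and 0.14) or macrophages (0.0545 and 0.0685). C3ar1 differed by -1.41 ± 1.30 (adjusted p = 0.952).

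**Figure D2:**
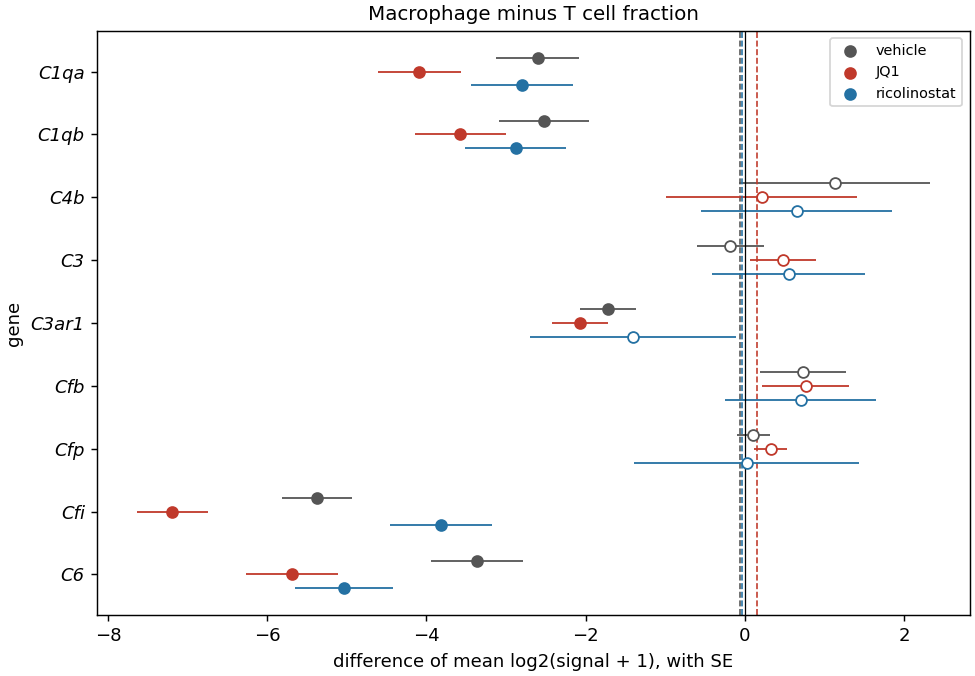
Difference of mean log2(signal + 1) between the macrophage and the T cell fraction for each complement gene under vehicle, JQ1 and ricolinostat (n = 2 libraries per group), with SE bars. Filled points passed an adjusted p of 0.05, open points did not, and dashed lines mark the median of all genes tested. C1qa, C1qb, C6 and Cfi lay to the left under all 3 treatments, and C3, C4b, Cfb and Cfp did not pass under any of them.

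Some markers of other cells also differed between the fractions, in both directions, and others were not called. Of the 12 macrophage markers, Mrc1 and Msr1 were higher and Cx3cr1 was lower in vehicle macrophages, and the other 9 did not pass. With all 12 libraries in the fit none of the 12 was called (limma adjusted p = 0.578 for Mrc1, 0.89 for Msr1 and 0.305 for Cx3cr1). Cx3cr1, the fractalkine receptor of monocytes and some tissue macrophages, was 6.11-fold lower (limma adjusted p = 0.0101). It read 1149.9 and 1200.2 in vehicle T cells and 138 and 265 in vehicle macrophages, and under JQ1 it was 9.24-fold lower in macrophages (limma adjusted p = 0.00581, and 0.227 with all 12 libraries). The 5 epithelial and tumour markers all exceeded 20 in every library. Their sum was 16577 and 21197 in vehicle T cells, 83712 and 77662 in JQ1 T cells, 53395 and 13681 in ricolinostat T cells, and 2814 to 5385 in macrophages. In ricolinostat T cells Cxcl15 read 38939 and 4800, and Epcam, Cdh1 and Msln were also lower in replicate 2. Muc1 read 4890 and 5705 there. Under vehicle Muc1, Cxcl15 and Msln were lower in macrophages and Epcam and Cdh1 were not called. Of 10 fibroblast and endothelial markers tested, Col1a1, Col3a1, Col4a1, Pecam1 and Thy1, which is also a T cell marker, were lower in vehicle macrophages. Of all genes tested 18.1% were lower. Both B cell markers tested, Cd79b and Blk, were lower. Among the vehicle and JQ1 libraries these fibroblast, endothelial and B cell genes exceeded 20 in T cells alone, so they had to differ. Of 4 dendritic cell markers Ccl22 and Flt3 were higher and Ccr7 and Itgae lower, and of 3 mast cell markers Fcer1a was higher. No neutrophil marker was called, and 9 of 10 T cell markers were lower. All of these 9 but Cd2 likewise exceeded 20 in T cells alone. With all 12 libraries in the fit the epithelial, fibroblast and endothelial and B cell calls held, Ccl22 was the one dendritic cell marker called, and Fcer1a was not called. For the fibroblast, endothelial and B cell genes this is no sign of stability. The part of these cells in the complement differences was not tested.

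In the T cell fraction JQ1 lowered C3ar1, and no other member passed. C3ar1 fell by 1.96 ± 0.35 SE on the log2 scale, 3.89-fold (limma adjusted p = 0.0185, n = 2 and 2), and both JQ1 libraries lay below both vehicle ones. Of 640 genes 20% were called, 15.8% lower and 4.22% higher, so 1 of 9 members is near the background. All genes together shifted by a median of -0.37 in this fraction and -0.24 in macrophages, against a member median of -0.61 and -1.74. After each library was centred on its median, C3ar1 was lower by -1.62 (adjusted p = 0.0442). C3ar1 passed in 14 of 17 alternatives (limma adjusted p from 0.00744 to 0.779). It missed without vehicle T cell replicate 1 (0.127) or replicate 2 (0.125) and with the ricolinostat libraries in the fit (0.779).

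The other members of the T cell fraction did not pass. Cfp differed by -0.76 ± 0.21 (limma adjusted p = 0.0583) and passed in 6 of 17 alternatives (0.0264 to 0.999), 2 of which left out a vehicle macrophage library. Cfi was 2.37-fold higher in the mean of log2(signal + 1), by 1.24 (adjusted p = 0.104), and passed in 1 alternative, median centring (1.58, 0.0489). C1qa (-0.61, adjusted p = 0.455), C1qb (-0.69, 0.441), C3 (-0.35, 0.594), Cfb (-0.15, 0.87) and C6 (0.35, 0.699) were not called. C4b differed by -1.15 ± 1.20 (adjusted p = 0.533), which its replicate spread covers. In the same contrast all 10 T cell markers were lower and 4 of 5 epithelial and tumour markers were higher, among them Muc1 by 1.84 (adjusted p = 0.0273) and Cxcl15 by 2.45 (adjusted p = 0.0111). Of 4 dendritic cell markers Ccr7 (10.5-fold) and Itgae (at least 8.3-fold) were lower, as were the B cell marker Blk and the fibroblast marker Col3a1, while Col4a1 was higher. No macrophage, neutrophil or mast cell marker was called. With all 12 libraries in the fit 8 of 10 T cell markers, Ccr7, Itgae and Col3a1 were called lower, and none of the 5 epithelial and tumour markers was called (limma adjusted p = 0.11 for Muc1 and 0.482 for Cxcl15). The part of these shifts in C3ar1, Cfp and Cfi was not tested.

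In macrophages no member passed under JQ1, where 3 of 640 genes, 0.469%, did, and 128 genes, 20%, had an unadjusted limma p under 0.05. C3ar1 was 4.94-fold lower (log2 difference -2.31 ± 0.35, limma adjusted p = 0.0905), with replicates that differed by only 1.01-fold under JQ1. It passed in 2 of 17 alternatives, with signals under 20 raised to 20 (0.0464) and with an intensity trend in the variance (0.0401), and the range was 0.0401 to 0.999. C1qa was 4.28-fold lower (-2.10 ± 0.52, adjusted p = 0.126) and C1qb 3.33-fold (-1.74 ± 0.57, adjusted p = 0.184), and neither passed in any of 17 alternatives. C4b (-2.07 ± 1.20, adjusted p = 0.396), Cfp (-0.54, 0.241), C3 (0.32) and Cfb (-0.11) did not pass, and C6 and Cfi were at background in both groups. The median over the 7 members above background was -1.74. Cx3cr1 was 3.74-fold lower in the same contrast (adjusted p = 0.111), and none of the 12 macrophage markers was called.

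The JQ1 effect was not shown to differ between the fractions for any member. Of 640 genes 5.62% were called in that test and 0 of 9 members, and 120 genes, 18.8%, had an unadjusted limma p under 0.05. The difference, macrophages minus T cells, was -0.35 ± 0.50 for C3ar1 (limma adjusted p = 0.779), -1.49 ± 0.74 for C1qa (0.375), -1.05 ± 0.80 for C1qb (0.564) and -0.91 ± 1.69 for C4b (0.848).

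**Figure D3:**
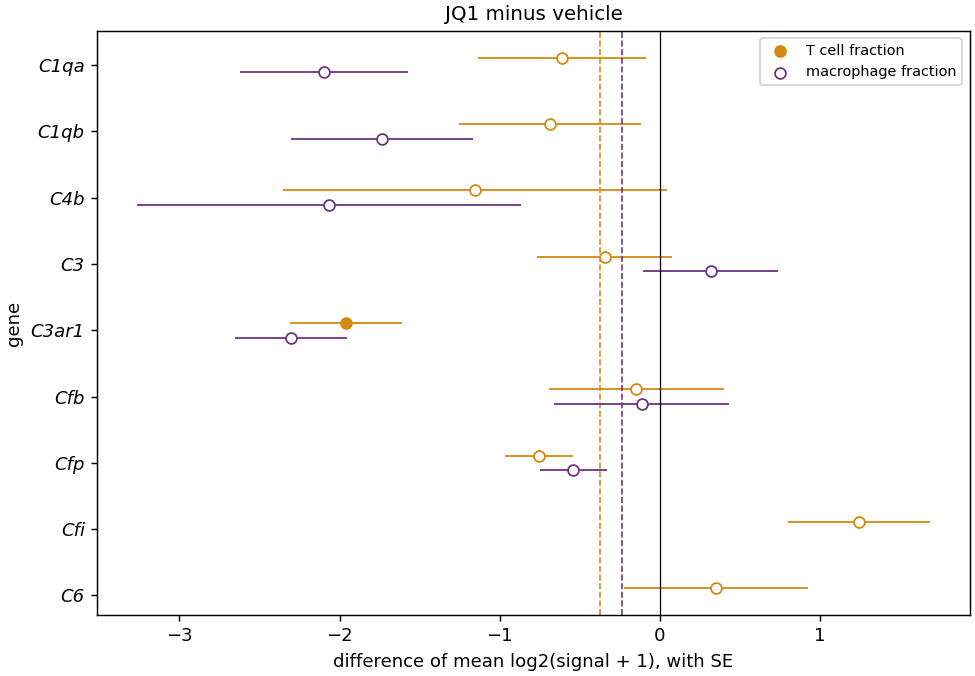
JQ1 minus vehicle difference of mean log2(signal + 1) for each complement gene in the T cell and the macrophage fraction (n = 2 libraries per group), with SE bars and dashed lines at the median of all genes tested. The filled point, C3ar1 in T cells, passed an adjusted p of 0.05 and open points did not. C6 and Cfi are not drawn in macrophages because all 4 libraries were at background.

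Under ricolinostat no member passed against vehicle in either fraction, with or without the replicate 2 libraries, and neither did any of the 659 genes (limma, 0% called). An unadjusted p under 0.05 was reached by 25 genes in T cells, 3.79%, and by 38 in macrophages, 5.77%, and without both replicate 2 libraries by 77, 11.9%, and 47, 7.24%, of 649. In T cells C6 was 3-fold higher (log2 difference 1.59 ± 0.62, unadjusted p = 0.0306, limma adjusted p = 0.758), with both libraries above both vehicle ones, and 1.80 without replicate 2 (adjusted p = 0.413). Cfi differed by 1.16 with and 1.78 without replicate 2 in T cells. In macrophages Cfi was at least 1.52-fold higher (limma adjusted p = 0.376), on signals of 40.2 and 23.6.

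The direction for other members rested on replicate 2. In T cells C3ar1 differed by 0.79 with all libraries and -1.06 without both replicate 2 libraries, C3 by 0.95 and -0.10, and Cfb by -0.91 and 0.13. Cfp differed by -1.83 and -0.13, C4b by 1.52 and 0.78, C1qa by 0.26 and -0.32, and C1qb by 0.09 and -0.27. The first library alone thus put C3ar1 below vehicle and the mean of both put it above. In macrophages C3 differed by 1.68 with all libraries and 0.36 without replicate 2, C3ar1 by 1.10 and -0.60, Cfb by -0.93 and 0.22 and Cfp by -1.91 and 0.32. C1qa, at 0.06 and -0.10, and C1qb, at -0.27 and -0.12, moved little. With replicate 2 as the only ricolinostat macrophage library, C3 (a log2 difference of 3, limma adjusted p = 0.0388), Cfi (2.34, 0.0452) and Cfp (-4.15, 0.0388) passed among 223 genes, a test that assumes the lone library varies like the other groups. The ricolinostat effect was not shown to differ between fractions for any member or any of 659 genes. An unadjusted limma p under 0.05 was reached by 12 of the 659, 1.82%. Without both replicate 2 libraries it was reached by 29 of 649, 4.47%.

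The pattern of each member over the 10 libraries that leave out ricolinostat replicate 2 was set against 658 genes by Pearson's r on log2(signal + 1). The libraries share groups and fractions, so these values are descriptions across few levels, and signals at background entered r as they stood. C1qa was most like C1qb (r = 0.997 over 10 libraries and 0.99 over 12), then Nfatc2, a transcription factor of the NFAT family (0.972 and 0.892), and Cx3cr1 (0.968 and 0.883). C1qb had the same neighbours, Nfatc2 at 0.977 and 0.841 and Cx3cr1 at 0.972 and 0.831. C3ar1 was most like Tlr1, a Toll-like receptor (0.965), but at -0.04 over 12 libraries, while Cx3cr1 held in both (0.928 and 0.95). The complement member nearest to C3ar1 was C1qa (0.889 and 0.753).

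C6 and Cfi were like each other (0.93 and 0.927) and shared a low signal in macrophages, so their r values rest in part on background. C6 was nearest to the mucin gene Muc1 (0.955 and 0.952) and to Lcn2, which encodes lipocalin 2 (0.952 and 0.924). Cfi was nearest to Il34, a ligand of the receptor Csf1r (0.996 and 0.988), to the complement inhibitor gene Clu (0.981 and 0.864) and to Dpp4, a surface peptidase (0.98 and 0.946). Il34, like Cfi, was at background in vehicle and JQ1 macrophages. Both genes read the same values there, 2.9 and 5.03 with vehicle and 2.12 and 2.41 with JQ1, which say nothing of a shared pattern.

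C4b was nearest to Cd1d1 (0.919), which fell to 0.26 over 12 libraries, and Marco, a macrophage scavenger receptor, held in both (0.883 and 0.928). Marco read 504 and 1421 in JQ1 T cells and 847 and 2517 in JQ1 macrophages, so that its second JQ1 library was the higher one in both fractions, as for C4b. C3 was nearest to Trem1 (0.898 and 0.98) and Tlr2 (0.87 and 0.98), receptors of myeloid cells, and Creb5 turned from 0.875 to -0.87. Cfb was nearest to Psmb8 (0.941), Tapbp (0.936) and Psmb9 (0.93), genes of antigen processing for MHC class I, and all 3 were below 0 over 12 libraries. Cfp was nearest to Il1rn (0.966 and 0.997) and Irf5 (0.965 and 0.971). C3 and Cfb, at 0.769 over 10 libraries, stood at -0.60 over 12.

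**Figure D4:**
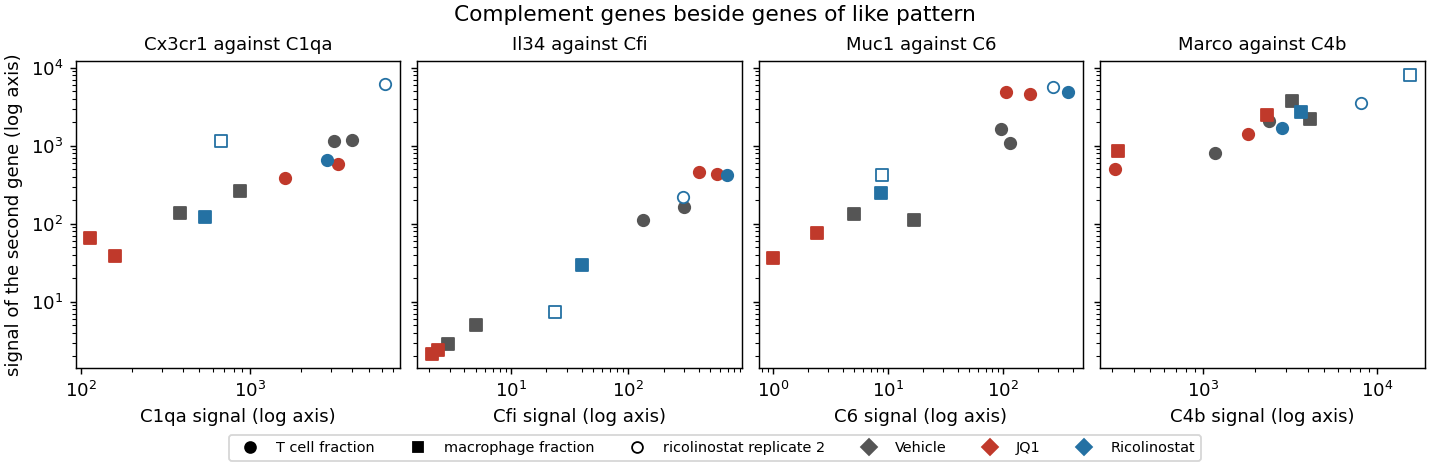
Signal of 4 genes of like pattern against the signal of the complement gene they resemble, both on log axes, 1 point per library, with T cell libraries as circles, macrophage libraries as squares and ricolinostat replicate 2 open. Libraries higher in C1qa were higher in Cx3cr1, and the same held for Cfi and Il34, C6 and Muc1, and C4b and Marco, while the open points of Cx3cr1 lay above the rest of their fraction. Cfi, Il34 and C6 were at background in vehicle and JQ1 macrophages.

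A fixed list of other complement genes, with some linked genes such as C1qbp, Thbd and A2m, held 26 genes on the panel. Of these, 14 passed the filter on low signal in the vehicle and JQ1 libraries and 15 in all 12. In vehicle macrophages 3 were lower and none higher than in T cells. These were Cd55, a membrane inhibitor of convertases (at least 13-fold, limma adjusted p = 0.000594), Clu, an inhibitor of the terminal pore (25.7-fold, 0.00584), and Serping1, the inhibitor of C1 proteases (at least 2.07-fold, 0.00574). The median difference was 0.13 over the 14 genes, against -0.06 over all genes. The 14 include C1qbp and Thbd, so this median does not describe complement genes alone. Under JQ1, Cd55 (38.1-fold, with 1 of the 2 macrophage libraries at background), Clu (62.9-fold), Serping1 and Hc, which encodes C5, were lower in macrophages. Among the vehicle and JQ1 libraries Serping1 and Hc exceeded 20 in T cells alone and Cd55 in those and 1 macrophage library, so these genes had to differ once they entered the test. Itgb2, the beta chain of complement receptors 3 and 4, was higher (1.62-fold, 0.024). JQ1 lowered Itgax, the alpha chain of complement receptor 4, in T cells (1.91-fold, limma adjusted p = 0.0313) and no listed gene passed in macrophages. With all 12 libraries in the fit Cd55 passed under vehicle (limma adjusted p = 0.00606) and Cd55 (0.0119) and Hc (0.0448) under JQ1. Clu (0.0911 under vehicle and 0.0544 under JQ1), Serping1 (0.226 and 0.192), Itgb2 (0.979 under JQ1) and Itgax (0.999 in T cells) then did not. Under ricolinostat Cd55 was the one gene of the list called between the fractions in that fit (at least 8.33-fold lower in macrophages, limma adjusted p = 0.038), on T cell signals of 568 and 52.8. Without both ricolinostat replicate 2 libraries Cd55 (limma adjusted p = 0.00528), Clu (0.038) and Serping1 (0.038) were called lower. In either fit no gene of the list was called for ricolinostat against vehicle. The terminal components C7, C8a, C8b and C9 were at background in every library, as were Cfd, Masp2 and Cd46. C8g, which encodes a chain of C8, read 8.74 to 47.3 over the 12 libraries.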

How the data were processed

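Transcripts of 770 genes were counted by NanoString, per the labels' protocols, in 12 libraries of 6 groups. The authors deposited 1 table with 1 signal per gene and library, normalised by a method not given in the sources used here. No per-sample column was left unused (0). The low values lay on regular steps of 1.43 to 7.45 signal units per count, from which counts above background were estimated.

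Members and lists were chosen with earlier results of these data known. All 9 members are named. Other complement and linked genes and cell markers come from fixed lists, named where they passed the test or bear on a member. Like genes come from the 3 with the highest r. Results for some genes of these lists are not reported here.

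Tests used log2(signal + 1) in limma 3.58.1 (R 4.3.3), a mean for each group, two-sided p-values and Benjamini-Hochberg adjustment over all genes tested, at 0.05. Where both libraries of a group stood at or below 20, folds are lower bounds against 20. Genes above 20 in 2 or more of the fitted libraries entered the test, and 20 housekeeping genes were left out. Vehicle and JQ1 contrasts were fitted in 8 libraries, and ricolinostat contrasts in 12 and in 10. The test was run on simulated data with the same spread in every group and large changes in JQ1 T cells alone. Spread differed between the groups here, so that run does not show how the test performs on these libraries. The last numbers in the titles of T cell and macrophage libraries differ by 6 within a treatment, and over 659 genes the paired deviations from group means had correlations of 0.135 (vehicle), 0.25 (JQ1) and 0.79 (ricolinostat). The labels do not say that such libraries share an animal, and taking them as pairs in a blocked fit is an assumption. The ricolinostat value includes the shared departure of the replicate 2 libraries. Alternatives were scaling, pseudocount, background, filter, variance trend, libraries in the fit, the block and leaving out each library. Figures used matplotlib 3.10.9 under Python 3.11.15.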

Additional observations from a re-analysis of the deposited data

How the results depend on the processing

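No member's called difference changed sign under any alternative; of the comparisons of single members with their alternatives, 48 lost the call, 15 gained it and 1455 stayed on the same side of the threshold, 94 of these with the sign turned, each between values that were not called. Members called for JQ1 against vehicle in T cells went from 1 to 2 with median centring, quantile normalization, a pseudocount of 20, a floor of 20 or an intensity trend and to 0 with all 12 libraries in the fit, where genes called went from 128 to 37. In macrophages they went from 0 to 1 with the floor or the trend, and genes called went from 3 to 1 with median or housekeeping centring, 10 with the floor, 5 with the trend and 0 with no filter, all 12 libraries or only the 4 compared. Between fractions, genes called went from 154 to 291 with median centring and 70 with all 12 libraries under vehicle, and from 154 to 298 and 36 under JQ1. For the difference in JQ1 effect they went from 36 to 61 with a pseudocount of 20, 70 with the floor, 6 with all 12 libraries and 11 with the replicate block. Ricolinostat against vehicle in macrophages went from 0 to 1 gene with quantile normalization. Between fractions under ricolinostat, members called went from 4 to 2 with median centring or without ricolinostat replicate 2, and genes called from 38 to 17 and 65. The cause was not tested. The replicate block gave 184, 201 and 47 genes called between fractions under vehicle, JQ1 and ricolinostat, and among members it changed only the call of Cfb.

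Leaving out 1 library gave 0 to 2 members and 1 to 117 genes for JQ1 in T cells, 0 members and 0 to 9 genes for JQ1 in macrophages, 1 to 5 members and 45 to 135 genes between fractions under vehicle, and 3 to 5 and 58 to 126 under JQ1. For the difference in JQ1 effect it gave 0 members and 0 to 36 genes. For ricolinostat it gave 0 members and 0 to 1 gene in T cells, 0 to 3 and 0 to 223 in macrophages, 1 to 3 and 13 to 51 between fractions, and 0 and 0 to 5 for the difference in effect. Calls higher and lower were 38 and 116 between fractions under vehicle, and 181 and 110 with median centring or 107 and 92 with quantile normalization. Under JQ1 they were 59 and 95, then 205 and 93, 107 and 72, and 27 and 100 with housekeeping centring. For JQ1 in T cells they were 27 and 101, then 38 and 61 with median centring and 63 and 78 with quantile normalization. For the difference in JQ1 effect they were 27 and 9, then 24 and 20 with quantile normalization, and between fractions under ricolinostat 1 and 37, then 4 and 22. Signals near 20 rest on few counts, which limits Cfi and C6 in macrophages.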

Other observations

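C5ar1, the receptor for the complement peptide C5a, read 3733 and 3934 in vehicle T cells and 3925 and 4738 in vehicle macrophages. Under ricolinostat it read 6440.5 in T cell replicate 1 and 806 in replicate 2, and 9586 and 668 in the macrophage replicates, so both first libraries lay above and both second libraries below the vehicle ones. C3ar1, the receptor for C3a, had its high and low ricolinostat libraries the other way round. No C5ar1 difference was called by limma under either drug.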
